A study of Mus musculus with 2 samples.

Results

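Neutrophil granule and alarmin genes were read in 2 pooled RNA-seq libraries of mouse dorsal root ganglion (DRG) cells. They were S100a8, S100a9, Ngp, Camp, Lcn2, Ltf, Elane, Mpo, Retnlg and Lyz2, and were chosen by gene symbol, with the measured values of these same pools already in view, as a readout of blood in each pool. These 10 genes took 11 of the 35034 transcript rows and are 10 of 24411 gene symbols. Because the choice drew on values from the same 2 libraries, the levels and differences of the members are given as a description, with no test.

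The study sequenced DRG neuron preparations to learn which neuronal and immune genes they express, and did not set out to compare the groups statistically. Male C57BL/6 mice (C57BL/6J in the methods), 6 to 8 weeks old, were injected intraperitoneally on day 0 and again on day 14 with 200 µl of saline that held 50% alum, an adjuvant of aluminium salt. The alum-injected group received nothing else. The alum + KLH-immunized group also received 100 µg of KLH, keyhole limpet hemocyanin, which is a mollusc protein given as a foreign antigen. The pools are called the alum pool and the alum + KLH pool. Thoracic and lumbar DRGs were taken on day 28, digested with collagenase and dispase, passed over an albumin gradient to enrich neurons, and depleted of B lymphocytes with beads. Both groups shared the adjuvant, and the methods give the same preparation protocol for both. The methods do not say whether the pools were processed together. With 1 library per group, immunization cannot be told apart from differences in preparation. The deposited label calls the control both naïve and given alum alone, and the methods describe it as alum-injected. Cells of 10 mice were pooled into 1 library per group, so there are no replicates, no error between mice, and no replicate check of any difference below.

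Values are TPM, the share of a library's reads assigned to a transcript, corrected for transcript length, with a total of 1000000 per library. The paper states a minimum read depth per sample. Read counts per gene were not given, so the number of reads behind a single value is unknown. A gene above 3 TPM was counted as detected. In the alum pool 11454 genes passed this threshold and in the alum + KLH pool 11302. All 8 neuronal marker genes tested were above it in both pools, with summed levels of 14551 and 14273 TPM. All 6 markers of satellite glia, the cells that wrap the neuron bodies, also passed, at 1776 and 1653 TPM in all, so the pools held glial RNA beside that of neurons.

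Neutrophils carry antimicrobial proteins in granules that form in sequence while the cell matures in bone marrow. Elane and Mpo are transcribed in early precursors, Ltf, Lcn2, Camp and Ngp in later precursors, and S100a8 and S100a9 are cytosolic proteins that make up much of the mature cell's protein and act as alarmins when released. Neutrophils are abundant in blood and marrow and are not a normal resident of the ganglion in large number.

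The sequences before the start sites of the 4 genes that were most reduced in the alum + KLH pool are shown because these members were lower together. Each line gives the 250 bases before the start, 5′ to 3′ on the strand of the gene, from the RefSeq annotation of GRCm38.p6 (the assembly that mm10 names). Capitals mark letters that match TTNNGCAA, a form bound by C/EBP factors, GAGGAA, a form bound by the myeloid factor PU.1, or TATAAA, a common core promoter element. TTNNGCAA and GAGGAA were searched on both strands and read TTGCNNAA and TTCCTC on the other, and TATAAA was likewise searched in both orientations. S100a8 is at chr3:90668821-90669070 on the plus strand, S100a9 at chr3:90695722-90695971 on the minus strand, Ngp at chr9:110419558-110419807 on the plus strand and Camp at chr9:109849457-109849706 on the minus strand.
S100a8: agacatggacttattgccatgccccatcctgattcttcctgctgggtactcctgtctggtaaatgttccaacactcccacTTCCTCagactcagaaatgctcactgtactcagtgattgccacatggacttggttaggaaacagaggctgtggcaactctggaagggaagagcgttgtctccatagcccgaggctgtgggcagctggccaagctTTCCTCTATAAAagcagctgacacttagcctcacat
S100a9: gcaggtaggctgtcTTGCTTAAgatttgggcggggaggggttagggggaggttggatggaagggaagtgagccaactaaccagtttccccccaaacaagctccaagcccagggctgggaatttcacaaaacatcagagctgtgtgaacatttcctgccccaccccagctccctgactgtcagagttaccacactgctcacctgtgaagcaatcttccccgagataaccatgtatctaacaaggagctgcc
Ngp: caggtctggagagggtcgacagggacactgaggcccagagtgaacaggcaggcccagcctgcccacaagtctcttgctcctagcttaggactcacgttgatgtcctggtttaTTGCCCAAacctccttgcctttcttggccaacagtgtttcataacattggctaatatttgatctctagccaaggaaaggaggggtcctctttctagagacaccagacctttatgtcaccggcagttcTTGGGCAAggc
Camp: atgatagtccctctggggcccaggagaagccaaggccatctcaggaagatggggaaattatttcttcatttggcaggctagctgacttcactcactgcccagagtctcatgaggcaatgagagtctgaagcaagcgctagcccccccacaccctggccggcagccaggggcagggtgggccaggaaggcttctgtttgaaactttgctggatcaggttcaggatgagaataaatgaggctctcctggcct
The S100a8 window held TTCCTC at 170 to 165 and again at 36 to 31 bases before the start, the second joined without overlap to TATAAA at 30 to 25. S100a9 held 1 C/EBP form, at 236 to 229 bases, and Ngp held 2, at 138 to 131 and at 11 to 4 bases. The Camp window held none of these letters. Over 32851 promoter windows of this length, 9.56% held the C/EBP form, 23.3% the PU.1 form and 12.4% TATAAA. Among the 10 member windows the counts were 5, 5 and 1. A match of letters is not a binding site, and no binding was measured.

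S100a8 and S100a9 encode the subunits of calprotectin, a calcium-binding heterodimer that sequesters zinc and manganese from microbes and signals through TLR4. S100a8, with 3 exons at chromosome 3, 90669071 to 90670034, was at 32.3 TPM in the alum pool and at 4.59 TPM in the alum + KLH pool. The alum pool was therefore 7.05-fold higher. S100a9, with 3 exons at chromosome 3, 90692630 to 90695721, was at 11.7 and 0.962 TPM in the same order, a 12.2-fold difference in the same direction. S100a8 stayed above 3 TPM in both pools, while S100a9 passed this threshold only in the alum pool. S100a9 was the one member listed on more than 1 row. One of its rows held 11.7 TPM in the alum pool and almost nothing in the other, and the second row was listed at 0 and at 0.962 TPM. Both rows pair with the same annotated transcript of 519 nt, so the sum over rows was used.

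On the scale of log2 of TPM + 1, as the alum + KLH pool over the alum pool, which shrinks the differences of low genes, the ratio was -2.58 for S100a8 and -2.69 for S100a9. Counts of genes at least 2-fold apart use this scale, so a gene below 1 TPM in both pools cannot reach it. The SD of this ratio over the 500 genes closest in mean level was 0.19 for S100a8 and 0.43 for S100a9. Of these 500 genes, none differed as far in either direction as S100a8 and 0.6% as far as S100a9. None of the 500 mRNA genes closest to either had a ratio as low. Among all 10836 genes with an mRNA row above 3 TPM in one pool or both, S100a9 had the lowest ratio and S100a8 the second lowest. Among all 8486 genes above 10 TPM they ranked 28 and 29, and 27 of the 28 genes ahead of S100a8 had noncoding rows only. S100a8 exceeded S100a9 2.77-fold in the alum pool and 4.77-fold in the alum + KLH pool, on TPM, which are per length.

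**Figure D1:**
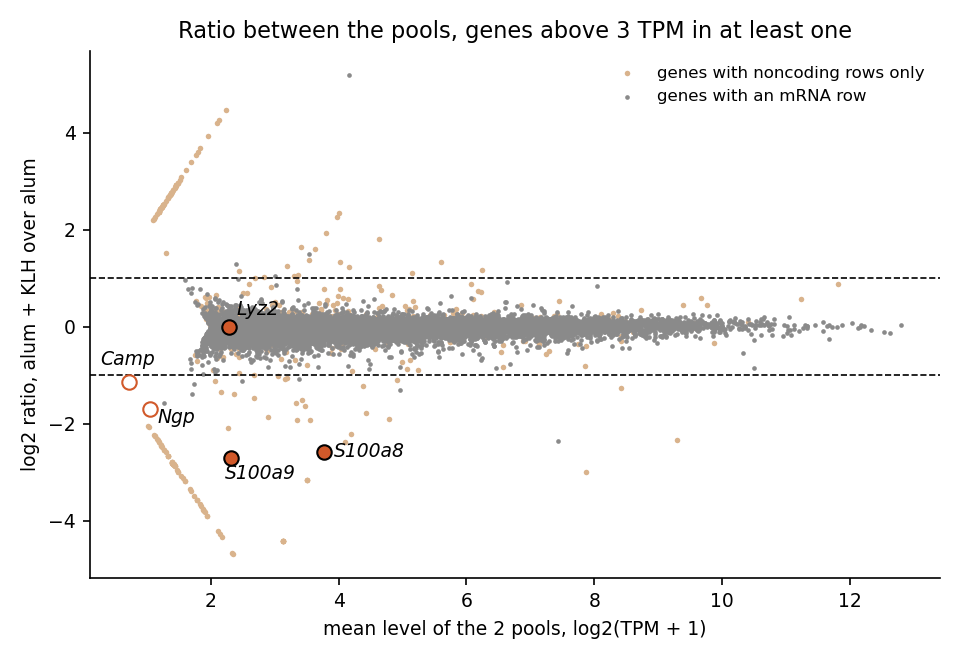
Each point is a gene above 3 TPM in at least one pool, or Ngp or Camp (open circles, below 3 TPM), with the mean level of the pools as log2(TPM + 1) on the x axis and the log2 ratio of alum + KLH over alum on the y axis, and dashed lines at a 2-fold difference. S100a8 and S100a9 lie below every other gene with an mRNA row (grey), at -2.58 and -2.69, and Lyz2 lies at -0.01.

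Ngp and Camp, members of the cathelicidin-related family, come from the secondary granules. Ngp encodes neutrophilic granule protein and Camp the precursor of the antimicrobial peptide CRAMP. Ngp (4 exons, chromosome 9, 110419808 to 110423012) was at 2.72 TPM in the alum pool and 0.153 TPM in the alum + KLH pool, 17.8-fold apart. Camp (4 exons, chromosome 9, 109847377 to 109849456) was at 1.44 and 0.114 TPM, 12.6-fold apart. Neither gene passed 3 TPM in either pool, and their log2 ratios were -1.69 and -1.13. Of the 500 genes closest in level, 2.2% differed as far in either direction as Ngp and 1.4% as far as Camp. Among the 500 closest genes with an mRNA row, none had a ratio as low as that of Ngp or of Camp. Among the 200 closest mRNA genes of at most 1000 nt, none had a ratio as low as S100a8, S100a9, Ngp or Camp, and 0.5% for S100a8 and 1% for Camp differed as far in the other direction. Ngp exceeded Camp 1.89-fold in one pool and 1.34-fold in the other.

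Ltf, Lcn2 and Retnlg, also genes of the later granules or of mature cells, were below 1 TPM in both pools. Ltf, which encodes the iron-binding protein lactoferrin (17 exons, chromosome 9, 111019292 to 111042766), was at 0.279 TPM in the alum pool and 0.0997 TPM in the alum + KLH pool. Lcn2, whose product binds bacterial siderophores (6 exons, chromosome 2, 32384637 to 32387739), was at 0.591 and 0.438 TPM. Retnlg, a resistin-like gene of myeloid cells (4 exons, chromosome 16, 48872608 to 48874498), was at 0.513 and 0.112 TPM. The log2 ratios were -0.22 for Ltf, -0.15 for Lcn2 and -0.44 for Retnlg. Of the 500 genes closest in level, 16.8% differed as far between the pools as Ltf, 45.0% as far as Lcn2 and 4.6% as far as Retnlg. The Lcn2 difference was thus well inside the spread of genes of like level, at an SD of 0.24.

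The primary granule genes were near or at 0. Mpo, which encodes myeloperoxidase (14 exons, chromosome 11, 87793784 to 87804412), was at 0.1005 TPM in the alum pool and 0.0216 TPM in the alum + KLH pool. Elane, which encodes neutrophil elastase (5 exons, chromosome 10, 79886312 to 79888216), was listed at 0 in both. Of the 500 genes closest to Mpo, 42.8% differed as far. Prtn3 and Ctsg, the other classical primary granule proteases, were also listed at 0 in both pools.

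Lyz2 encodes lysozyme M, which neutrophils share with monocytes and macrophages. It has 4 exons at chromosome 10, 117277541 to 117282272. Its level was 3.90 TPM in the alum pool and 3.86 TPM in the alum + KLH pool, with a log2 ratio of -0.01 and a neighbour SD of 0.48. Of the sequence of Lyz2, 32.8% of its 31-base words also occur in Lyz1, so the split of reads between them is uncertain. Lyz1 and Lyz2 summed to 6.13 and 5.94 TPM. The other shared words were 14.7% for Mpo, with the predicted gene Gm11505, and 5.51% for Retnlg, with Retnla. S100a8, S100a9, Ngp, Camp, Lcn2, Ltf and Elane shared none.

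**Figure D2:**
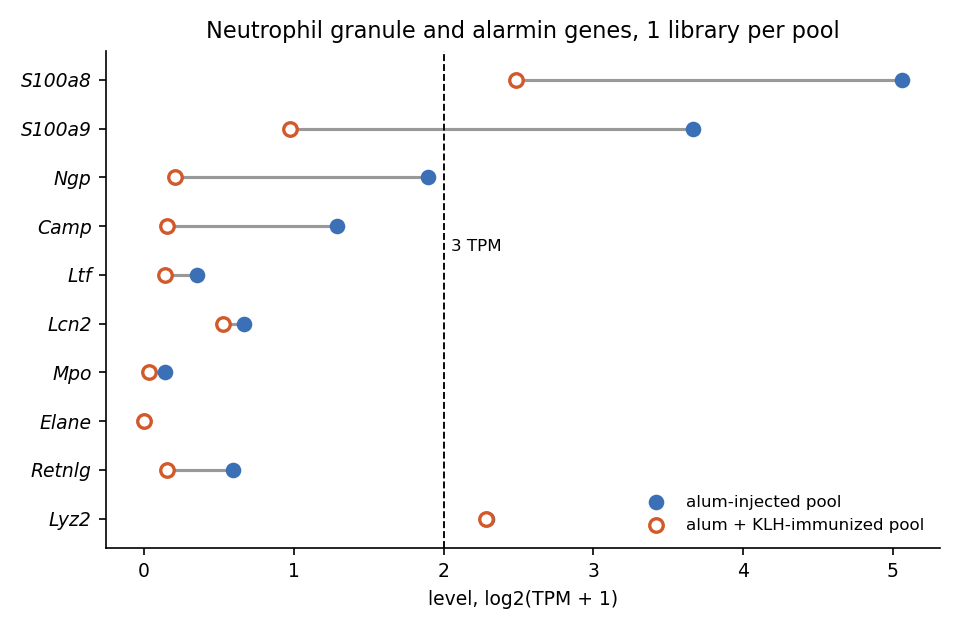
Each row is a member gene and the x axis its level as log2(TPM + 1), filled blue for the alum pool and open orange for the alum + KLH pool, with 1 library each and a dashed line at 3 TPM. S100a8, S100a9, Ngp and Camp are joined by the longest lines, whereas the points of Lyz2 (3.90 and 3.86 TPM) and of Elane (0 in both) overlap.

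Of the members, 9 of 10 were lower in the alum + KLH pool and the remaining one, Elane, was at 0 in both. Of all 19596 genes above 0 in at least one pool, 56.1% were lower. In all, 3 members were above 3 TPM in the alum pool (S100a8, S100a9 and Lyz2) and 2 in the alum + KLH pool, and 7 were below in both. Among the 3 that passed in at least one pool, 2 (S100a8 and S100a9) were at least 2-fold lower, where 0.944% of the 11648 genes that passed were at least 2-fold lower and 0.695% at least 2-fold higher. No member was 2-fold higher. Among genes with an mRNA row the share at least 2-fold lower was 0.0831%. With no filter, Ngp and Camp joined S100a8 and S100a9 past 2-fold, 4 of 10 members, where 0.508% of all genes were as low. S100a9 passed 3 TPM only through the pool in which it is high. Since the members were chosen on these libraries, nothing is read from the shares.

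In descending order, the alum pool held S100a8, S100a9, Lyz2, Ngp, Camp, Lcn2, Retnlg, Ltf, Mpo and Elane. In the alum + KLH pool Lyz2 came ahead of S100a9, and Lcn2 stood above Ngp, Camp and Retnlg, which lay within 0.112 to 0.153 TPM. With 1 library per pool, it cannot be said which neighbours in these orders differ beyond the spread between mice.

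The 10 genes summed to 53.6 TPM in the alum pool and 10.3 TPM in the alum + KLH pool, a 5.18-fold difference. S100a8 alone supplied 60.4% of the sum in the first pool and 44.3% in the second, and Lyz2 7.27% and 37.3%. Without Lyz2 the sums were 49.7 and 6.49 TPM. The median over members was 1.01 and 0.133 TPM, and the median log2 ratio was -0.33, beside 0 for all genes and -0.02 for genes above 3 TPM. In bulk RNA, fewer cells of a type and less RNA per cell cannot be told apart.

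Few mRNA genes differed as far. In all, 9 of 10836 genes with an mRNA row above 3 TPM were at least 2-fold lower. They were S100a9, S100a8, Lars2, Rpl36, Hbb-b1, Gm14288, Siva1, Mif and Rpl34, a list read after its values were seen. Lars2, a mitochondrial leucyl-tRNA synthetase, was at 390 and 74.97 TPM, and Hbb-b1, a beta globin of red cells, at 4.28 and 1.02 TPM. Without a pseudocount, 9 of the 12708 mRNA genes above 1 TPM in the alum pool were at least 5-fold lower in the other, 4 of them members (S100a8, S100a9, Ngp and Camp). Among the 12570 mRNA genes above 1 TPM in the alum + KLH pool, 3 were at least 5-fold higher there, and none was a member. S100a9, Ngp and Camp passed 1 TPM only through the pool in which they are high. The members were chosen on these libraries, so nothing is read from these counts. Over all genes above 10 TPM the lowest ratios were those of the short RNA genes Snord95 (24.6 TPM and listed at 0) and Mir1839 (24.2 TPM and listed at 0) and of 6 tied genes with Gm22109 among them (39.6 and 0.898 TPM), which RefSeq types as ribosomal RNA. In the opposite direction stood Rps27, a ribosomal protein gene (1.96 and 107.6 TPM), and the microRNA rows Mir6381, Mir190a, Mir103-2 and Mir1894.

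Neighbouring genes were read around S100a8 and S100a9 and from Camp to Ltf, and 1 of them was at least 2-fold apart. S100a8 and S100a9 lie 22.6 kb apart in the S100 cluster. Of 17 other genes in the files within 300 kb, 10 were above 3 TPM, and none of the 17 was 2-fold apart. The 10 had log2 ratios from -0.14 (S100a16) to 0.22 (S100a13). S100a7a, the closest of these genes to S100a8, was at 3.20 and 3.30 TPM, and S100a6, at 354 and 335 TPM, lies further out in the cluster. Camp, Ngp and Ltf lie in order on chromosome 9, with 570.4 and 596.3 kb between them. Among the 30 other genes between Camp and Ltf, 13 passed 3 TPM, and 1, the microRNA row Mir6236, was at least 2-fold lower (1413 and 279 TPM). The median ratio of the 13 was -0.11.

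**Figure D3:**
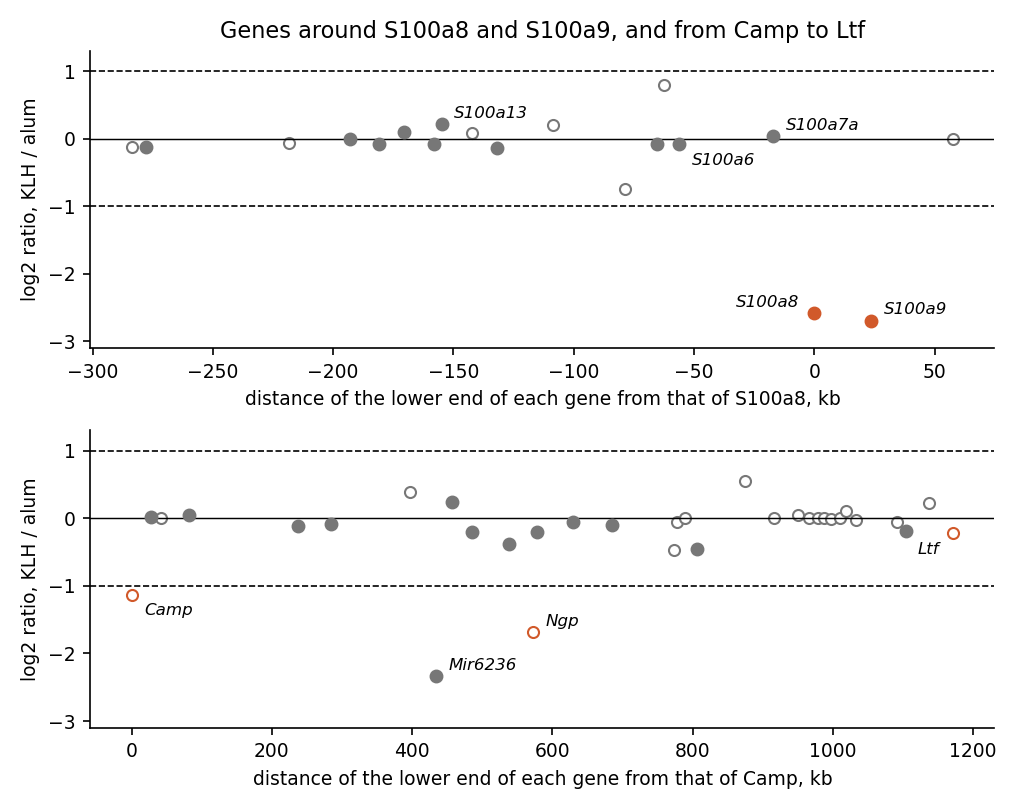
Each point is a gene, placed by the distance in kb of its lower end from that of S100a8 (top) or Camp (bottom), with its log2 ratio of alum + KLH over alum on the y axis, members in orange, filled where above 3 TPM in at least one pool. S100a8 and S100a9 lie near -2.6 while all other genes of the cluster lie between the dashed lines at a 2-fold difference, and in the lower panel Camp, Ngp and Mir6236 lie below them.

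Other neutrophil genes were set beside the members, from lists of other granule genes, surface receptors, the oxidase that makes superoxide, and transcription factors. Of the 21 genes on the granule list, which also holds genes of proteins outside granules, 3 were above 3 TPM and 5 were at 0 in both pools. None was 2-fold apart. The 3 were Srgn, which packs granule proteins (18.6 TPM in the alum pool and 12.3 TPM in the alum + KLH pool), Ctsc, which activates granule proteases (13.3 and 12.5 TPM), and the membrane gene Ms4a3 (21.7 and 20.9 TPM). The list summed to 56.9 and 48.1 TPM, a 1.18-fold difference against 5.18-fold for the members. Srgn, Ctsc and Ms4a3 supplied most of this sum in both pools. Which cells expressed these genes was not tested, so the sum is not read as an amount of neutrophil RNA. Below 3 TPM, and named after their values were seen, the chitinase-like Chil3 was at 1.34 and 0.297 TPM and Wfdc21 at 0.801 and 0.176 TPM, 4.50- and 4.55-fold apart without a pseudocount, while Ifitm6 was listed at 0 and at 0.914 TPM.

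Of the 13 surface receptors 12 had a row, since Ly6g had none, and 2 passed 3 TPM. Mmp25, a membrane-bound protease, was at 25.3 TPM in the alum pool and 19.9 TPM in the alum + KLH pool, and the chemokine receptor Cxcr2 at 11.4 and 10.2 TPM. The receptors summed to 42.6 and 35.1 TPM with none 2-fold apart. Mmp25 and Cxcr2 supplied most of this sum, and which cells expressed them was not tested. Of 6 oxidase genes only the GTPase gene Rac2 passed, at 9.45 and 7.39 TPM, and Cyba and Ncf4 were listed at 0 in both. Of 6 transcription factor genes, Cebpd (27.7 and 27.4 TPM) and Cebpb (10.2 and 10.8 TPM) passed, and Cebpe, which is required for secondary granules, was at 0 in both. The levels of Mmp25, Cxcr2, Rac2, Cebpd and Cebpb differed between the pools by at most 1.28-fold.

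Genes that receive or resemble the alarmins were read next, and none above 3 TPM was 2-fold apart. Of 8 receptor genes, 4 passed 3 TPM. Bsg, whose product basigin binds S100A9, was at 297.3 TPM in the alum pool and 248.7 TPM in the alum + KLH pool. Ly96 (MD-2), the partner of TLR4, was at 19.6 and 20.7 TPM, Tlr4 at 7.196 and 7.29 TPM, and Slc22a17, a receptor for the Lcn2 product, at 8.84 and 7.30 TPM. Ager, the RAGE receptor, named after its values were seen, was listed at 0 and at 0.0436 TPM. Of 19 other S100 genes and alarmins, 13 were above 3 TPM in both pools and none of these was 2-fold apart. S100a10 was at 1136 and 1008 TPM, S100b at 683 and 711 TPM, S100a6 at 354 and 335 TPM and Hmgb1 at 347 and 359 TPM. One gene of this list, S100g, named for its ratio, was more than 2-fold higher in the alum + KLH pool, below 3 TPM (0.176 and 1.85 TPM). The 8 paralogues of the members, Lyz1 among them, summed to 4.72 and 4.51 TPM and none passed 3 TPM.

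Markers of other blood and vessel cells were read beside the members, and their part in the members' difference was not tested. Of 12 erythroid genes 10 had a row and 8 were lower in the alum + KLH pool, beside 56.1% of all genes above 0 in at least one pool. The 8 are not separate observations. Named after their values were seen, Hbb-b2 and Hbb-bt had identical values (0.613 and 0.0733 TPM). Hbb-bs was at 3.83e-09 TPM in the alum pool and at 0 in the other. The list summed to 10.6 and 3.26 TPM, 3.27-fold apart. Hba-a1, an alpha globin that shares 71.4% of its 31-base words with other globin genes, was at 4.15 and 1.62 TPM. On the scale of log2 of TPM + 1, Hbb-b1 was the one erythroid gene past 2-fold, and the ratio of Hba-a1 was -0.97. The globin genes of the files summed to 9.65 and 2.79 TPM. Platelet markers, 8 of 8 in the files and none above 3 TPM, summed to 2.97 and 3.18 TPM. Of these, 5 were lower and 3 higher in the alum + KLH pool.

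The 17 monocyte and macrophage markers summed to 16.2 and 14.4 TPM, with 11 lower and 6 higher in the alum + KLH pool, and Cd14, at 3.93 and 3.79 TPM, was the one above 3 TPM. Ly6c2 and Plac8, named after their values were seen, were at 0.9001 and 0.648 TPM in the alum pool and listed at 0 in the other. The 6 general leucocyte genes summed to 17.3 and 17.6 TPM, nearly all from Coro1a (14.1 and 15.6 TPM), the one gene of the list that was higher in the alum + KLH pool. The other 5 were lower, among them, named after their values were seen, Arhgdib (0.935 and 0.311 TPM), Cd52 (0.495 TPM and listed at 0) and Ptprc, the common leucocyte antigen CD45 (0.438 and 0.411 TPM). B lymphocyte markers summed to 0.754 and 0.234 TPM, with Cd79b, Blk and Vpreb3 at 0 in both. T and NK markers, 6 of 7 in the files, summed to 3.72 and 3.50 TPM, mostly from Cd3d, and the 7 mast cell, eosinophil and basophil markers to 3.85 and 2.95 TPM, with Tpsb2 and Epx at 0 in both.

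The 10 markers of cycling and progenitor cells of marrow summed to 134 and 136 TPM. Kit (58.1 and 56.2 TPM), Cd34 (48.8 and 51.2 TPM) and Flt3 (15.4 and 17.7 TPM) made up most of this, and the erythroid factors Gata1 and Klf1 were at 0 in both. Which cells expressed Kit, Cd34 and Flt3 was not tested, so the sum is not read as an amount of marrow cells. All 7 endothelial markers were lower in the alum + KLH pool, at 15.7 and 11.9 TPM in all, none by 2-fold, with Emcn at 5.17 and 4.46 TPM and Cdh5 at 3.79 and 3.15 TPM. The 6 Schwann cell markers summed to 1181 and 1122 TPM. S100a8, S100a9, Ngp and Camp were thus lower in the same pool as the summed erythroid markers (3.27-fold) and B lymphocyte markers (3.22-fold, from under 1 TPM). The sums were also lower there for endothelial markers (1.32-fold) and mast cell, eosinophil and basophil markers (1.303-fold). Those of monocyte and macrophage markers (1.12-fold) and T and NK markers (1.06-fold) were lower too. Cd3d, most of the T and NK sum, was itself higher there (2.97 and 3.13 TPM), with 3 genes of that list lower and 2 higher. Satellite glia (1.07-fold) and Schwann cell markers (1.05-fold) were lower by an amount like that of T and NK markers. Platelet markers (2.97 and 3.18 TPM), general leucocyte genes (17.3 and 17.6 TPM, nearly all Coro1a) and the marrow list (134 and 136 TPM) were not lower in sum.

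**Figure D4:**
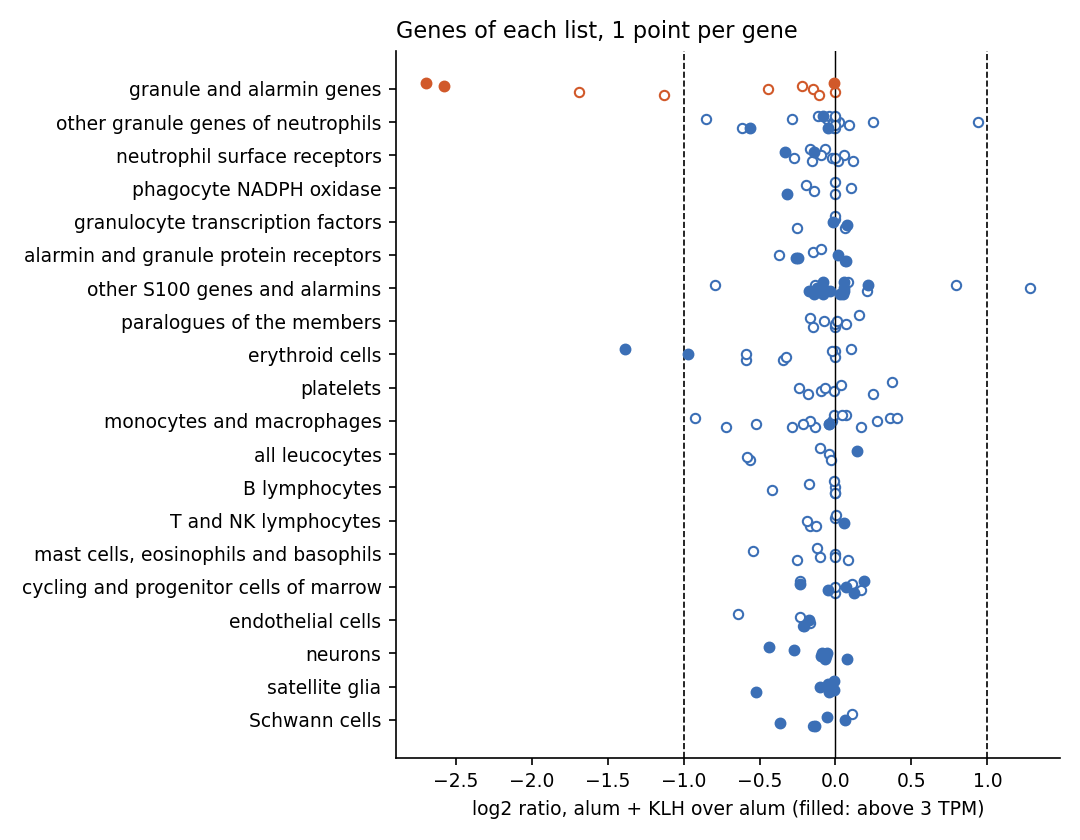
Each point is a gene of the list named at the left, with its log2 ratio of alum + KLH over alum on the x axis, filled where above 3 TPM in either pool, and dashed lines at a 2-fold difference. S100a8 and S100a9 in the top row (orange) lie furthest left at -2.58 and -2.69, followed by Ngp at -1.69 and the beta globin Hbb-b1 at -1.38.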

How the data were processed

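RNA-seq of 2 pooled mouse DRG libraries was analysed. The authors prepared stranded mRNA libraries, sequenced them on a NextSeq, ran bcl2fastq, trimmed reads with cutadapt and quantified them with kallisto against the annotated mm10 transcriptome (versions not given in the sources used here), and deposited TPM per RefSeq transcript.

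TPM was summed over rows with the same symbol. Members are the symbols of the list. Members and gene lists were chosen with earlier results of these data known. The genes named are all members, up to 4 of the highest genes above 3 TPM per list, genes of a list above 3 TPM and 2-fold apart, the 5 highest and 5 lowest ratios above 10 TPM, and defining markers at 0 in both pools. Outside this rule, genes were named after their values were seen (Chil3, Wfdc21, Ifitm6, S100g, Ager, Ptprc, Arhgdib, Cd52, Ly6c2, Plac8, Lyz1, Ly6g, Hbb-b2, Hbb-bt, Hbb-bs, the chromosomal neighbours and the mRNA genes at least 2-fold lower). Ratios are log2 with a pseudocount of 1 TPM, set beside the SD over the 500 genes closest in mean level. With 1 library per group no test was made. Positions came from RefSeq and exons from GENCODE M21, both of GRCm38. Calculations used Python 3.11.15, numpy 2.4.6, pandas 2.3.3 and matplotlib 3.10.9, and were tested on simulated data. Alternatives were pseudocounts of 0.1 and 0.5 TPM, thresholds of 1, 10 and 0 TPM, rescaling, single transcripts, and leaving out short RNAs, globins or Lyz2. After seeing the data, ratios without a pseudocount, a background of mRNA genes, and short mRNA genes of like level were added.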

Additional observations from a re-analysis of the deposited data

How the results depend on the processing

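S100a8 and S100a9 were at least 2-fold lower at the threshold of 3 TPM, a count of 2 that rose to 4 at 1 TPM and to 4 with no filter, where Ngp and Camp entered. The members above the threshold in the alum-injected pool, 3, became 5 at 1 TPM and 9 above 0. In the alum + KLH-immunized pool the 2 became 0 at 10 TPM and 9 above 0. The median log2 ratio of -0.33 became -1.23 with a pseudocount of 0.1 TPM and -0.55 with 0.5 TPM, and the log2 ratio of the summed TPM, -2.37, became -2.94 without Lyz2. Of 79 recomputed member ratios 61 moved by less than the neighbour SD, 18 moved further, all with another pseudocount, and none changed sign. All 50 under another scaling or summary stayed within the SD, but several of them could hardly move. Elane was at 0 throughout, a member with 1 row is unchanged as a single transcript, and the median ratio used for rescaling was 0.994. The share of genes at least 2-fold lower, 0.944%, became 0.0967% without short RNA rows, 0.577% at 10 TPM and 2.79% over rows. No paired analysis was possible because each group holds 1 library.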
